A study of Bos taurus with 6 samples.

Results

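Interferon-stimulated genes encode the antiviral machinery that cells switch on when interferon binds its receptor. Type I interferon binds the receptor chains IFNAR1 and IFNAR2 and leads to a nuclear complex with STAT2 and IRF9 that drives these genes. Many of them keep a basal level in unstimulated endothelium, where their products sense foreign nucleic acid, block viral entry or translation, or tag proteins with the modifier ISG15. A list of 43 such genes was followed here in primary bovine aortic endothelial cells with and without TGF-beta 1. Its genes were picked by name, with earlier results of these arrays known. Of the 43, 31 had at least 1 probe set in the array annotation under that name. These 31 are described below, of 9162 genes in all. ISG20, IFIT1, IFIT3, IFIH1, IFITM2, IFITM3, OAS1, OAS2, IRF1, BST2, CXCL9 and DDX58 were not analysed here.

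The cells had been released from bovine aorta with collagenase and grown in RPMI medium. One group of 3 arrays came from untreated (basal) cultures and the other, called TGFB1, from cultures given 5 ng/ml TGF-beta 1, a cytokine of the endothelium and vessel wall, for 24 hours. No strain, genotype or age is given in the labels, which name no interferon treatment in either group. The labels speak of 3 cultures without saying whether these came from separate animals, so p-values measure only the spread between these arrays.

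Values are log2 expression per probe set, so a difference of 1 is a 2-fold change. A level is not comparable between genes on this scale, and each gene is set only against itself or against the median of all probe sets on the array, which lay between 5.88 and 5.92. Of the 31 genes, 23 were above that median on all arrays, 6 on some and 2 on none. The arrays split by more than treatment. The first principal component over all probe sets held 63.4% of the variance. By its sign basal 1, basal 2 and TGFB1 1 formed set A, and basal 3, TGFB1 2 and TGFB1 3 formed set B. Positions on it were -67.8, -38.8 and 36.0 in basal and -10.3, 39.5 and 41.4 in TGFB1 arrays. TGFB1 1 lay nearest to the change of sign and far from basal 1, and the sets are not balanced for treatment. Of 13 measured endothelial markers, 12 were above the array median on all arrays, among them PECAM1 at 11.73 to 12.43. KDR, an endothelial receptor, lay below it throughout at 4.39 to 5.50. Of the 13, 6 were lower on all treated arrays than on any basal array (46.2%, all genes 15.1%) and 2 were higher on all (15.4%, all genes 8.19%). CLDN5, a tight junction protein, was the 1 marker past the threshold set out below (difference -3.17, limma adjusted p = 0.0371). Its limma adjusted p was 0.00422 without basal 3 and 0.11 to 0.192 without any other 1 array. PECAM1 stood at -0.52 (SE 0.13, limma adjusted p = 0.112). The part of these differences in the results below was not tested. Leukocytes are another source of interferon-stimulated transcripts. Of 11 measured leukocyte markers, 9 were below the median on all arrays, and their median was 4.58 to 4.92 in basal and 4.73 to 4.87 in TGFB1 arrays. PTPRC, the pan-leukocyte marker, lay at 3.77 to 3.93, and CD14, at 6.54 to 7.46, was the 1 marker of that list above the median on all arrays. Of 6 smooth muscle markers, 3 were above the median on all arrays and 2 below it on all. Of 6 fibroblast markers these were 1 and 3. ACTA2, of smooth muscle, lay at 6.95, 7.08 and 7.97 in basal and 6.77, 7.94 and 7.90 in TGFB1 arrays. With treatment held it was higher in set B by 1.05, while SMTN of the same list differed by -0.60. What other cell types add to the results was not tested.

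Interferon-stimulated genes did not move as one block with TGF-beta 1. IFI6 and EIF2AK2 rose past the threshold, each by a little more than 2-fold, and no member fell past it. The rise of EIF2AK2 rested on 1 of its 2 probe sets. The modifier ISG15 and its protease USP18 were higher on every treated array than on any basal array, as were MX2 and XAF1. UBA7, the enzyme that activates ISG15, and IFITM1, a barrier to viral entry, were lower on every treated array, as were STAT2 and IFI35. None of these passed the threshold. With IFI6 and EIF2AK2 that made 6 members higher (19.4%, all genes 8.19%) and 4 lower (12.9%, all genes 15.1%). A further group, of IFI16, IFI44, IFI44L, SAMD9, PARP14 and GBP5, was higher in set B than in set A by at least 1 log2 with treatment held. That is 19.4% of members against 6.24% of all genes. A set difference larger than the treatment difference was common on these arrays, in 54.8% of members and 61.8% of all genes.

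By limma, with p-values adjusted by Benjamini-Hochberg over all 9162 genes and a threshold of 0.05, 2 of the 31 members were called. That is 6.45%, against 1.72% of all genes. Both calls were upward, a direction called for 0.557% of all genes. None was called lower (limma), where 1.17% of all genes were. Unadjusted p was under 0.05 for 8 of the 31 members, 6 higher and 2 lower, and for 17.4% of all genes. The median difference, TGFB1 minus basal, was 0.20 over the members and -0.03 over all genes. The members' median was 0.0476 without basal 3, 0.0564 with the probe set of highest variance for each gene and 0.39 over members with a mean above the array median. The difference was above 0 in 18 members (58.1%) and in 44.4% of all genes. At least 1.5-fold higher were 11 members (35.5%, all genes 8.26%), and at least 1.5-fold lower were 2 (6.45%, all genes 7.09%). The median size of the difference without its sign was 0.52 over the members and 0.19 over all genes. These shares describe the list, which was chosen with earlier results of these arrays known.

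**Figure D1:**
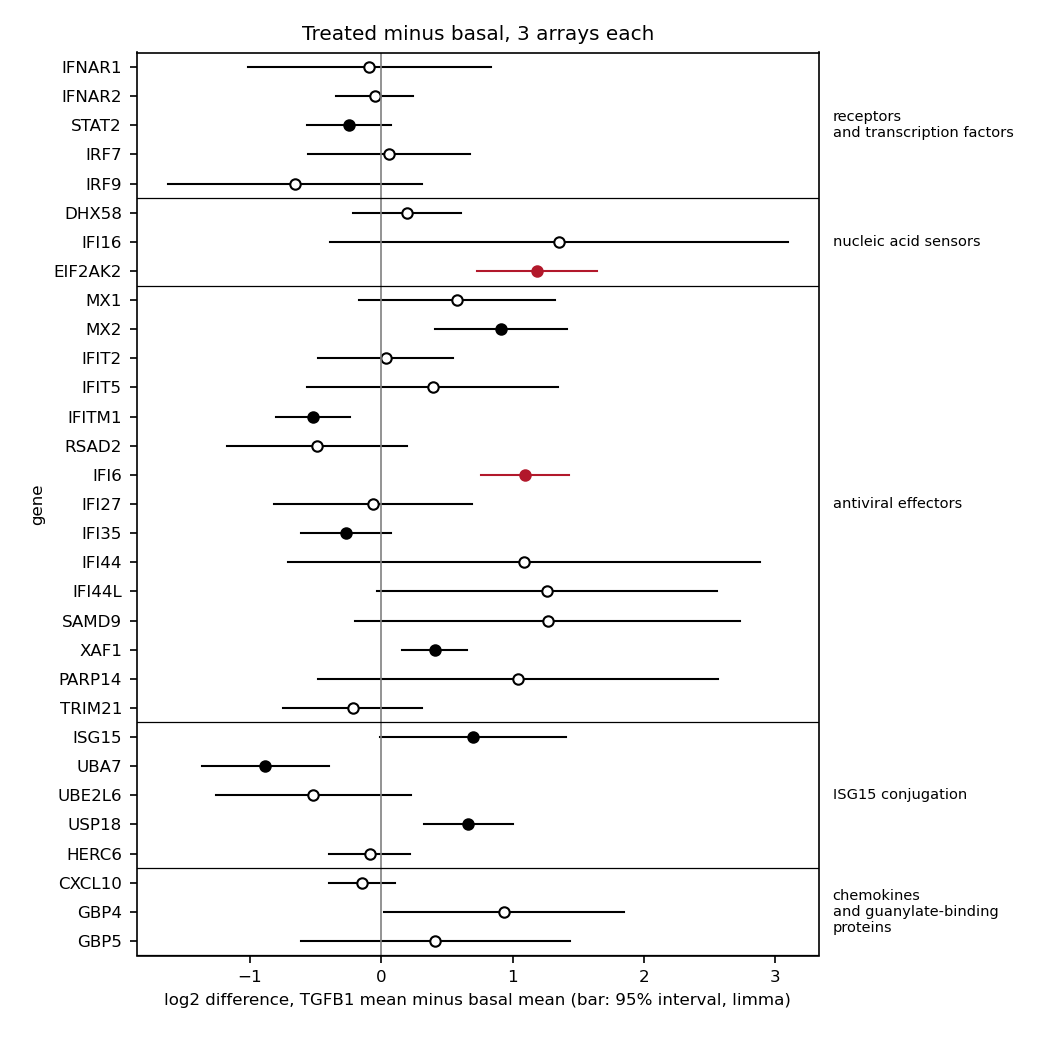
Difference in log2 expression, TGFB1 mean minus basal mean, for the 31 members grouped by role; bars are 95% intervals of the limma fit with 3 arrays a group. Red marks the members past the threshold, EIF2AK2 and IFI6, and filled points mark members whose groups did not overlap; the widest intervals belong to IFI16 and IFI44.

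The groups did not overlap in 10 members, 6 higher and 4 lower after treatment. Upward that is 19.4% of members against 8.19% of all genes, and downward 12.9% against 15.1%. With 3 arrays a group, 0.1 is the smallest p that an exact permutation test (two-sided) of 1 gene allows.

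**Figure D2:**
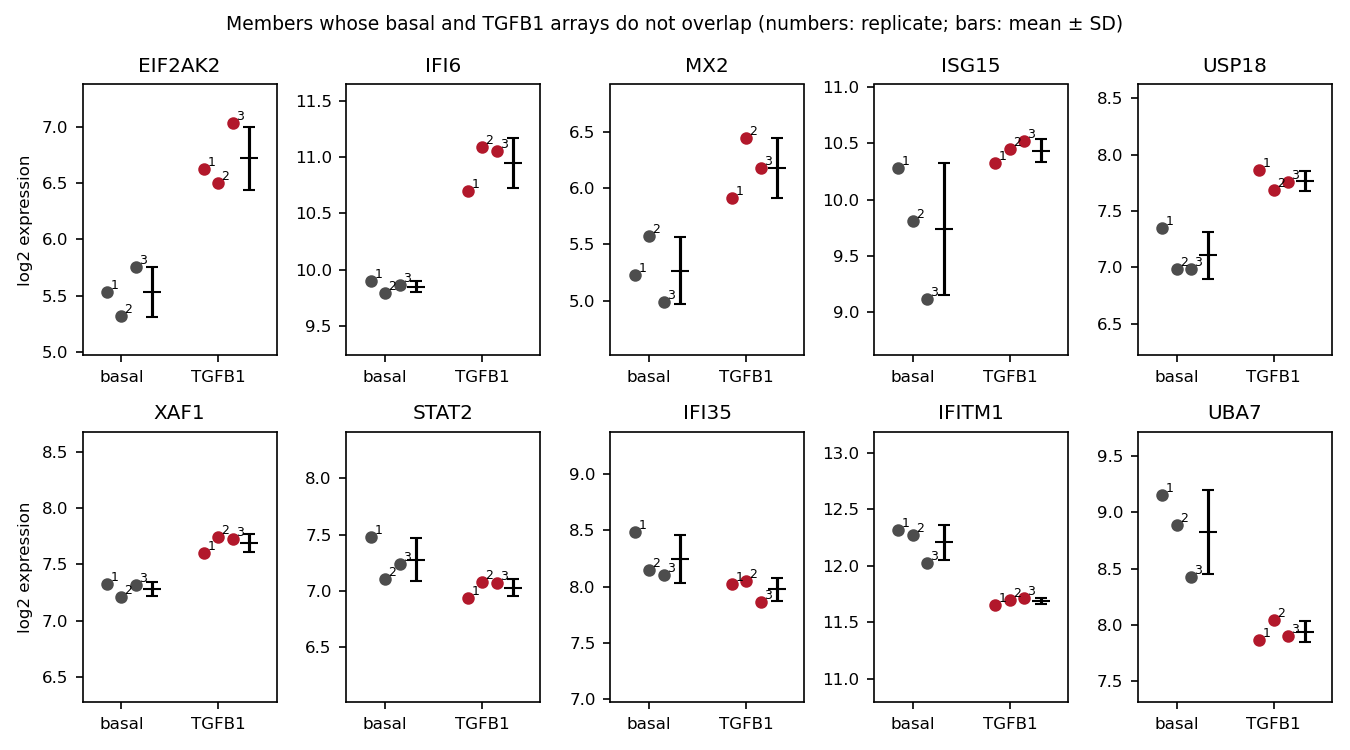
Log2 expression on each array for the 10 members whose basal and TGFB1 arrays did not overlap; numbers are replicates and bars show mean ± SD. IFI6 has its 3 basal arrays within 9.80 to 9.90 and its treated arrays at 10.69 to 11.09, while ISG15 is separated from basal 1 by a narrow gap (10.28 against 10.32).

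Receptors and transcription factors stand first in the pathway. None of the 5 measured was called, or reached an unadjusted p under 0.05 (limma). The receptor chain IFNAR1 lay at 4.96, 6.40 and 5.44 in basal arrays and 5.64, 5.72 and 5.17 in TGFB1 arrays. It was above the array median in basal 2 alone, and the groups overlapped. IFNAR2, the other chain, lay at 7.62, 7.68 and 7.69 against 7.80, 7.47 and 7.58. Its difference was -0.05 with a 95% interval of -0.34 to 0.24, while that of IFNAR1 ran from -1.02 to 0.84. STAT2 lay at 7.48, 7.11 and 7.24 in basal arrays and at 6.94, 7.08 and 7.07 in TGFB1 arrays. All treated arrays were below all basal arrays, by a mean of 0.25 log2 (difference -0.25, SE 0.13, limma adjusted p = 0.411). IRF9, which joins STAT2 in binding DNA, lay at 9.22, 8.79 and 7.73 against 8.29, 7.71 and 7.77. Its high values were basal 1, basal 2 and TGFB1 1, the arrays of set A. The difference of -0.66 (SE 0.40, limma adjusted p = 0.466) became -1.08 and passed without basal 3 (limma adjusted p = 0.0357), a fit that leaves basal arrays of set A only and so mixes treatment with the array sets. Within set B it was 0.01 and within set A -0.72. IRF7, which amplifies interferon alpha genes, lay at 8.09, 8.02 and 7.32 against 8.17, 7.80 and 7.62 (difference 0.06, SE 0.25). The other probe sets of IRF7 gave -0.17 and -0.30.

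Among the sensors of foreign nucleic acid, EIF2AK2 (Entrez gene 347700) rose. It encodes PKR, the kinase that stops translation on binding double-stranded RNA. Basal arrays lay at 5.53, 5.32 and 5.76 and TGFB1 arrays at 6.62, 6.50 and 7.03. All basal values were below the array median and all treated values above it. The means were 5.54 ± 0.22 and 6.72 ± 0.28 (SD, n = 3 each), so the level rose 2.27-fold (95% interval 1.66 to 3.12, limma adjusted p = 0.0461). Whether the basal signal exceeds background is unknown, since RMA gives no detection call, and the size of the fold rests on that signal. The difference was 1.20 within set A and 1.01 within set B. Wherever the groups do not overlap, here and in members below, the sign within both sets is fixed in advance. The call of EIF2AK2 rested on 1 of 2 probe sets, whose limma adjusted p over probe sets was 0.0631. The other lay at 5.40, 5.27 and 6.66 in basal and 4.91, 6.15 and 6.35 in TGFB1 arrays, a difference of 0.03 (SE 0.52), and followed the array sets. With the mean of both probe sets EIF2AK2 stood at 0.61 and did not pass (limma adjusted p = 0.417). IFI16, a sensor of DNA, lay at 6.22, 6.59 and 8.60 against 7.54, 8.88 and 9.04. Basal 3 reached the treated range, so the groups overlapped (difference 1.35, SE 0.72, limma adjusted p = 0.408). Within set A it was 1.14 and within set B 0.36. Without basal 3 it passed at 2.09 (limma adjusted p = 0.0393). DHX58, a helicase of the RIG-I family also called LGP2, lay at 6.86, 6.55 and 6.26 against 6.80, 6.78 and 6.68, a difference of 0.20 (SE 0.17).

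Of 15 measured antiviral effectors, IFI6 rose. IFI6 (Entrez gene 512913) encodes a small hydrophobic protein of endoplasmic reticulum and mitochondria. It lay at 9.90, 9.80 and 9.86 in basal arrays and at 10.69, 11.09 and 11.06 in TGFB1 arrays. The basal arrays differed from each other by 0.10 or less and the groups were far apart for that spread. The means were 9.85 ± 0.05 and 10.95 ± 0.22 (SD, n = 3 each), so the level rose 2.14-fold (95% interval 1.69 to 2.70, limma adjusted p = 0.0331). It was higher within set A by 0.85 and within set B by 1.21. With groups that do not overlap, this sign was fixed in advance and adds no support to the call. The array annotation gives 1 probe set for IFI6.

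Both calls turned on which array was left out. The limma adjusted p of IFI6 was 0.11 without basal 1, 0.185 without basal 2, 0.0653 without TGFB1 1, 0.192 without TGFB1 2 and 0.148 without TGFB1 3, with differences of 1.02 to 1.22. That of EIF2AK2 was 0.151, 0.209, 0.12, 0.192 and 0.156 without the same arrays, with differences of 1.03 to 1.29. Without basal 3 both passed (limma adjusted p = 0.0152 and 0.0157). Over all genes those fits called 1, 0, 3, 0 and 8 genes, and the fit without basal 3 called 1538. In that last fit 10 of the 31 members passed (32.3%, all genes 16.8%), 6 higher and 4 lower.

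The antiviral GTPases MX1 and MX2, which are direct neighbours in the bovine RefSeq table, were both higher in the treated mean. MX2 lay at 5.23, 5.58 and 4.99 in basal arrays, below the array median, and at 5.91, 6.45 and 6.18 in TGFB1 arrays. The groups did not overlap (1.88-fold, 95% interval 1.33 to 2.67, limma adjusted p = 0.0951). TGFB1 1 was level with the array median, at 5.91 against 5.92. MX1 lay at 11.20, 10.88 and 10.07 against 11.57, 11.15 and 11.16. Basal 1 exceeded 2 treated arrays, and basal 3 was the lowest (difference 0.58, SE 0.31, limma adjusted p = 0.41). Within the array sets MX1 was higher by 0.53 and by 1.08.

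IFITM1, a membrane protein that hinders fusion of viruses with the cell, lay at 12.32, 12.27 and 12.03 in basal arrays and at 11.66, 11.69 and 11.72 in TGFB1 arrays. The treated arrays spread over less than 0.1 log2 and all lay below the basal arrays. The difference was -0.52 (SE 0.12, limma adjusted p = 0.0937), a 1.43-fold lower level with a 95% interval of 1.18 to 1.74. Without basal 3 it passed at -0.61 (limma adjusted p = 0.0201). These values lie near the upper end of the arrays, whose maxima were 13.93 to 14.03. A second IFITM1 probe set was below the array median on all arrays and differed by -0.07 (SE 0.15). The locus LOC282255, for which the RefSeq table lists IFITM3 as a synonym, had 2 probe sets, looked up after the IFITM1 values were seen. Both were lower on all treated arrays, with differences of -0.46 (SE 0.17) and -0.39 (SE 0.08). Over probe sets their limma adjusted p was 0.316 and 0.106. IFITM genes are close copies of each other, and how far their probes separate them was not tested.

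XAF1, which counters an inhibitor of apoptosis, lay at 7.32, 7.21 and 7.32 against 7.60, 7.74 and 7.73. Its groups did not overlap, and its difference of 0.41 (SE 0.10, limma adjusted p = 0.115) was nearly the same within the sets, 0.33 and 0.42. IFI35 lay at 8.49, 8.15 and 8.10 against 8.02, 8.05 and 7.86, with all treated arrays lower (difference -0.27, SE 0.14, limma adjusted p = 0.405). RSAD2, or viperin, which makes an antiviral nucleotide, lay at 7.72, 8.25 and 7.47 against 7.10, 7.07 and 7.80. Its groups overlapped through TGFB1 3 (difference -0.49, SE 0.28). IFI27 had opposite signs in the array sets, -0.78 and 0.72, and a difference of -0.06. TRIM21, a cytosolic antibody receptor, did so as well, with -0.56 and 0.28. IFIT2, an RNA-binding protein, stood at 0.03 (SE 0.21).

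**Figure D3:**
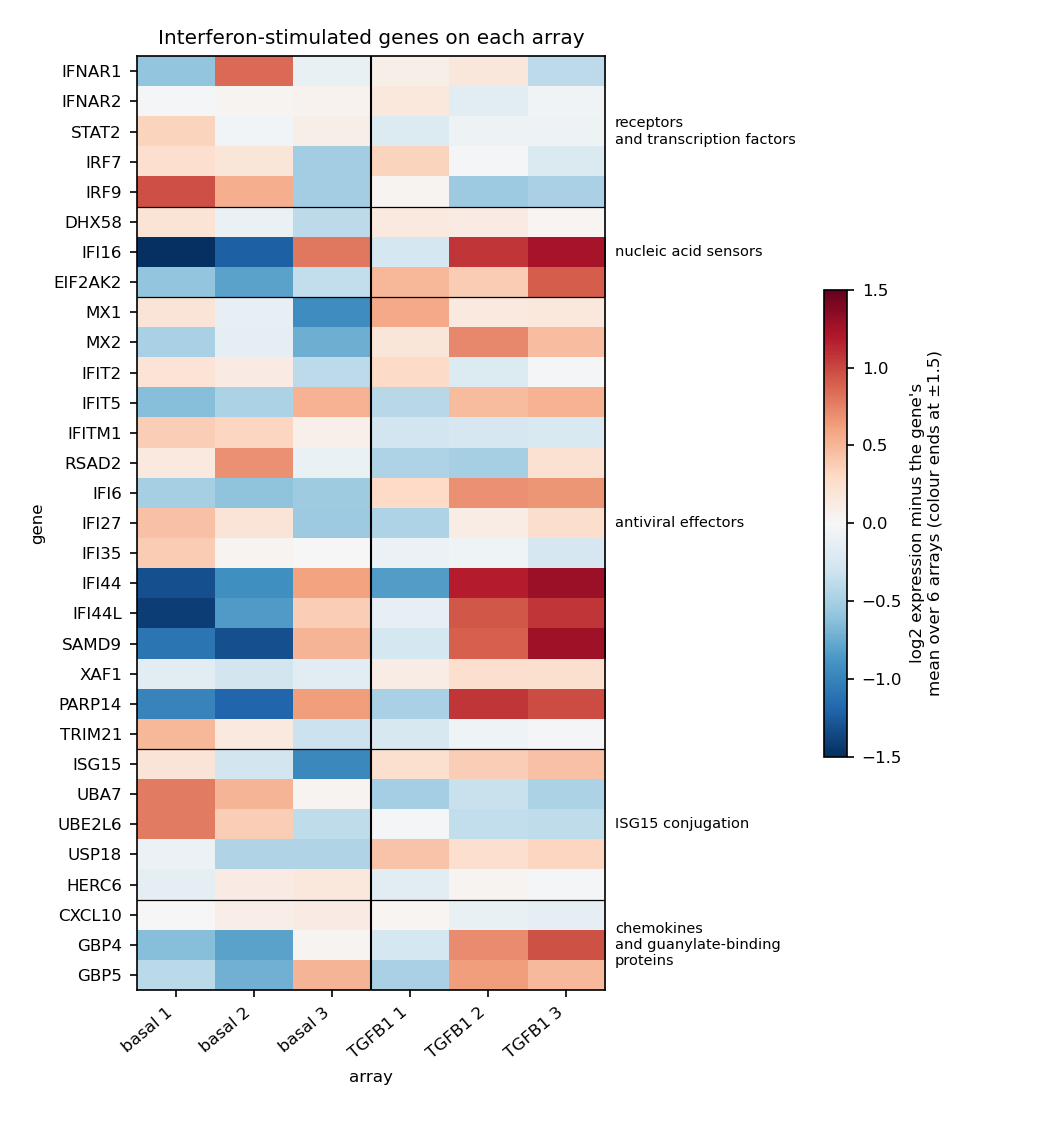
Each member's log2 expression minus its own mean over the 6 arrays, with genes in rows by role and arrays in columns. IFI16, IFI44, IFI44L, SAMD9, PARP14 and GBP5 are high in basal 3 as well as in TGFB1 2 and TGFB1 3, whereas IFI6 and EIF2AK2 change at the line between basal and TGFB1 arrays.

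In the remaining effectors the array sets were far apart. IFI44 lay at 5.59, 5.99 and 7.52 in basal arrays and at 6.07, 8.08 and 8.21 in TGFB1 arrays. Basal 3 was closer to TGFB1 2 and TGFB1 3 than to the other basal arrays, and TGFB1 1 closer to basal 1 and basal 2. Its neighbour IFI44L lay at 6.62, 7.19 and 8.42 against 7.92, 8.98 and 9.12. SAMD9, which restricts poxviruses, lay at 5.30, 5.08 and 6.91 against 6.14, 7.29 and 7.67. PARP14, an ADP-ribosyl transferase, lay at 8.26, 8.08 and 9.90 against 8.78, 10.34 and 10.25. In each of these 4 genes basal 3 exceeded TGFB1 1, so the groups overlapped. Their differences were 1.09, 1.26, 1.27 and 1.04, with SE of 0.53 to 0.74 and limma adjusted p of 0.301 to 0.523. Without basal 3, IFI44L passed at 1.76 and SAMD9 at 1.84 (limma adjusted p = 0.04 and 0.047). With treatment held, set B exceeded set A by 1.90 in IFI44, 1.32 in IFI44L, 1.53 in SAMD9 and 1.62 in PARP14. Treated arrays were higher within both sets in each of the 4. Within set A and set B the treatment difference was 0.28 and 0.63 in IFI44, 1.01 and 0.63 in IFI44L, 0.95 and 0.57 in SAMD9 and 0.61 and 0.39 in PARP14. With the array sets as a block IFI44L, SAMD9 and PARP14 were called higher, as given below, and IFI44 was not (limma adjusted p = 0.129). The 4 probe sets of IFI44 all gave a positive treatment difference, 0.74 to 1.14, with overlapping groups in each. IFIT5, an RNA-binding protein, lay at 9.46, 9.62 and 10.62 against 9.68, 10.58 and 10.62, and within the sets its treatment difference was 0.14 and -0.02. IFIT2, a near neighbour with 2 protein-coding genes between them in the RefSeq table, was lower in set B than in set A by 0.48, where IFIT5 was higher by 0.999.

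The ISG15 system is a ubiquitin-like pathway in which UBA7 activates ISG15, UBE2L6 carries it, ligases of the HERC family attach it and USP18 removes it. ISG15 lay at 10.28, 9.81 and 9.12 in basal arrays and at 10.32, 10.45 and 10.52 in TGFB1 arrays. All treated arrays were higher, basal 1 came within 0.05 of them, and basal 3 was the lowest. The difference was 0.70 (SE 0.29, limma adjusted p = 0.296), or 0.28 within set A and 1.37 within set B. USP18 lay at 7.35, 6.99 and 6.98 against 7.86, 7.68 and 7.76. The groups did not overlap, and the level was 1.58-fold higher with a 95% interval of 1.25 to 2.0 (limma adjusted p = 0.084). All 4 probe sets of USP18 had their treated arrays above their basal arrays, with differences of 0.66, 0.39, 0.75 and 0.59. Over probe sets their limma adjusted p was 0.0604 to 0.279.

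None of the 3 measured conjugating enzymes was called, and in 1 of them, UBA7, the groups did not overlap. UBA7 lay at 9.16, 8.89 and 8.43 in basal arrays and at 7.87, 8.05 and 7.90 in TGFB1 arrays. Treated arrays were all lower, a 1.85-fold lower level with a 95% interval of 1.32 to 2.58 (limma adjusted p = 0.094), with -1.15 within set A and -0.45 within set B. UBE2L6 lay at 7.15, 6.74 and 5.99 against 6.36, 6.0 and 5.99. Basal 3 was level with the treated arrays, and the groups overlapped (difference -0.52, SE 0.31, limma adjusted p = 0.456). It was -0.59 within set A and -0.0009 within set B, and set B was lower than set A by a difference of -0.66. UBA7 passed at -1.08 without basal 3 (limma adjusted p = 0.0112), as did UBE2L6 at -0.84 (0.0393) and USP18 at 0.60 (0.0477). HERC6 was below the array median on all arrays, from 4.44 to 4.75 (difference -0.09, SE 0.13).

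**Figure D4:**
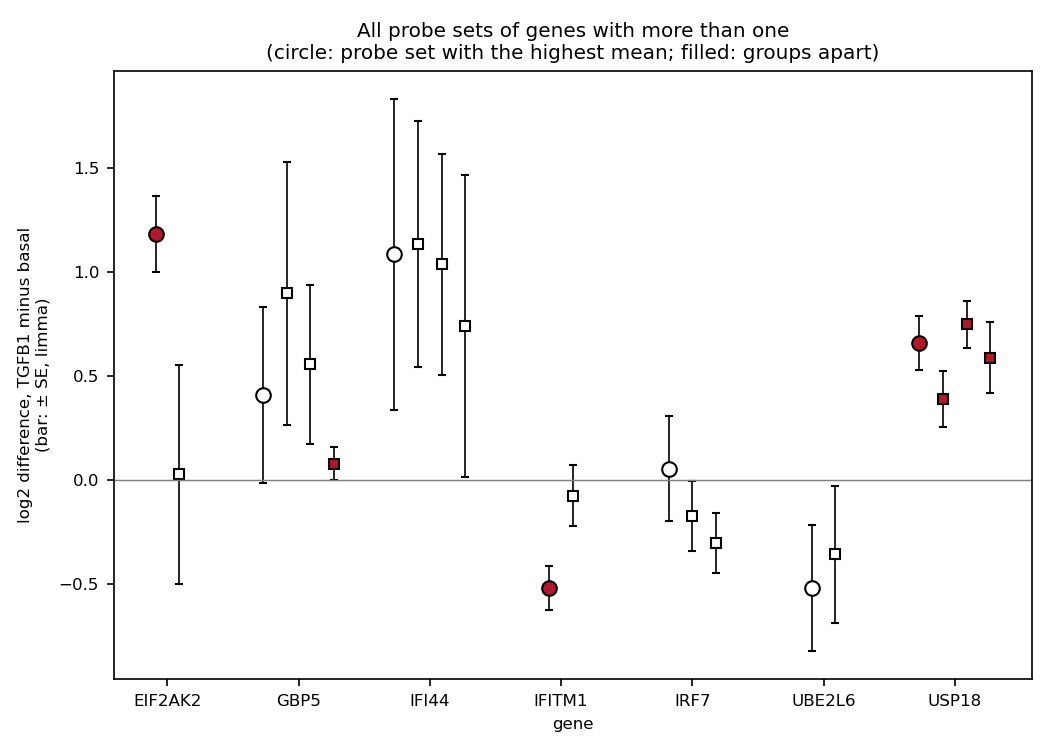
Difference in log2 expression, TGFB1 minus basal, for every probe set of the 7 members with more than 1, with bars of ± SE from limma. All 4 probe sets of USP18 are above 0 with groups apart (filled), while the 2 of EIF2AK2 stand at 1.18 and 0.03.

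The chemokine CXCL10, which attracts T cells and is a common readout of interferon gamma, lay at 3.75, 3.84 and 3.87 in basal and 3.78, 3.64 and 3.61 in TGFB1 arrays. This is below the 25th percentile of the arrays (4.52 to 4.60) in both groups, so no change at this level can be read (difference -0.15, SE 0.10). The guanylate-binding proteins are GTPases that attack intracellular pathogens. GBP4 lay at 6.04, 5.88 and 6.72 against 6.41, 7.39 and 7.63, a difference of 0.93 (SE 0.38, limma adjusted p = 0.277). Only basal 3 overlapped with the treated arrays, since it exceeded TGFB1 1. Within set A the difference was 0.45 and within set B 0.80. GBP5 lay at 6.51, 6.20 and 7.44 against 6.43, 7.55 and 7.40. It followed the array sets, higher by 1.06 in set B, and within the sets treated and basal arrays differed by 0.08 and 0.04. The 3 other probe sets of GBP5 stood at 0.90, 0.56 and 0.08.

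Over all members, 6 of 31 were higher in set B than in set A by at least 1 log2 with treatment held (19.4%, all genes 6.24%), namely IFI16, IFI44, IFI44L, SAMD9, PARP14 and GBP5. None was lower by as much, which held for 1.45% of all genes. The set difference was larger than the treatment difference in 17 members (54.8%, all genes 61.8%). Within the sets, which hold 1 treated array against 2 basal arrays in set A and 2 treated against 1 basal in set B, the treatment difference was positive in both for 17 members and negative in both for 8. The positive share was 54.8% against 29.2% of all genes, and the negative share 25.8% against 35.2%. The remaining 6 members had opposite signs in the sets. For the 6 members higher and the 4 lower on all treated arrays, the same sign in both sets was fixed in advance. These shares therefore partly repeat that count and are no separate result. The sets also come from the tested values. What separates the sets was not tested.

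**Figure D5:**
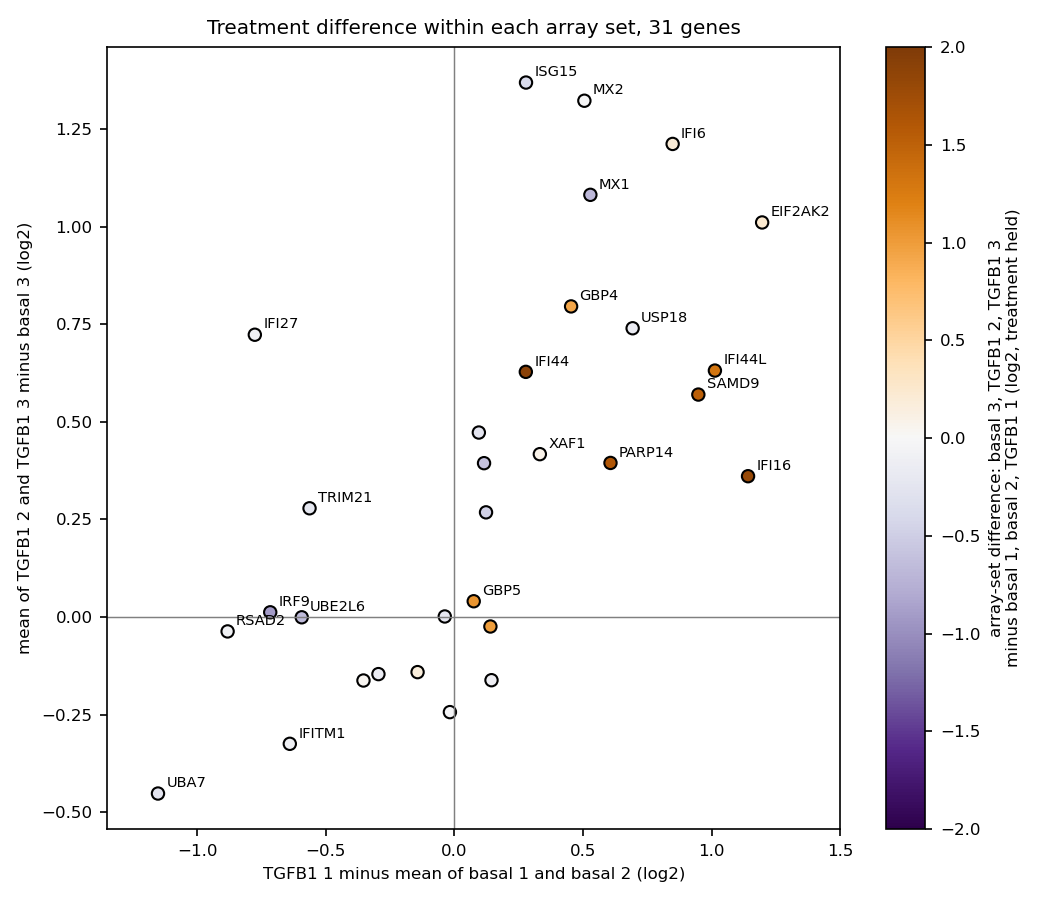
Treatment difference within set A (horizontal) and within set B (vertical) for the 31 members, in log2, with colour for the difference of set B minus set A at a fixed treatment. EIF2AK2, IFI6, USP18 and MX2 lie to the upper right with little array-set difference, UBA7 and IFITM1 to the lower left, and IFI27 and TRIM21 have opposite signs in the sets.

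A fit with the array sets as a block was chosen after earlier results were known and so is no independent test. Its sets come from the tested values and hold unequal numbers of basal and treated arrays, so its p-values can be too small. It called 11 of the 31 members and 9.58% of all genes. Of these 9 were higher (29.0%, all genes 4.01%) and 2 lower (6.45%, all genes 5.58%). IFI6 stood at 1.03, EIF2AK2 at 1.10, MX2 at 0.91, IFI44L at 0.82, MX1 at 0.81, SAMD9 at 0.76, USP18 at 0.72, GBP4 at 0.62 and PARP14 at 0.50. IFITM1 stood at -0.48 and UBA7 at -0.80. Their limma adjusted p ran from 0.00879 for IFI6 to 0.0495 for MX2. ISG15 (0.82, limma adjusted p = 0.111), XAF1 (0.37, 0.0614) and IFI16 (0.75, 0.0737) did not pass.

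Of 57 other genes of the interferon pathway, 1 was called, and it was lower, the direction called for 1.17% of all genes. IFI30, the thiol reductase of antigen processing that interferon gamma induces, fell 2.18-fold with a 95% interval of 1.63 to 2.92 (limma adjusted p = 0.0442). It lay at 8.82, 8.68 and 8.23 in basal and at 7.53, 7.42 and 7.41 in TGFB1 arrays, with the groups well apart. Its limma adjusted p was 0.131 without basal 1, 0.21 without basal 2, 0.116 without TGFB1 1, 0.212 without TGFB1 2, 0.171 without TGFB1 3 and 0.00615 without basal 3. Of 21 further stimulated genes it was the 1 called. In that group the aminopeptidase LAP3 stood at 1.47 (SE 0.25, limma adjusted p = 0.0557) and PML, which forms nuclear bodies, at 0.70 (SE 0.21, 0.167), both with all treated arrays higher. LAP3 passed at 1.74 without basal 3 (limma adjusted p = 0.00615). With the array sets as a block LAP3 passed at 1.30, PML at 0.85 and the immunoproteasome subunit PSMB10 at -0.72 (limma adjusted p = 0.0108, 0.0112 and 0.0319). The limits of the block fit given above hold here too.

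Receptor and kinase signalling had 16 other measured genes and nucleic acid sensing 8, of which limma called none, with 1 in each at an unadjusted p under 0.05 (all genes 17.4%). Among them the transcription factor IRF5 stood at 0.29, IRF3 at -0.51 and the feedback inhibitor SOCS3 at -0.24. The adaptor ligase TRAF6 stood at -0.39, the kinase IKBKE at -0.27 and TLR3, the receptor for double-stranded RNA, at 0.68. Limma adjusted p of these genes was 0.212 to 0.368. SOCS3 was below the array median on all arrays and IRF5 on all basal arrays. With the mean of all probe sets IRF5 stood at 0.07, SOCS3 at -0.07, IKBKE at -0.16, TRAF6 at -0.30 and TLR3 at 0.77. Without basal 3, IRF3 passed at -0.74 and TLR3 at 1.04 (limma adjusted p = 0.018 and 0.0235). None of 12 genes of antigen processing and presentation was called either (limma, 1 at an unadjusted p under 0.05, all genes 17.4%). Of its 5 genes of the immunoproteasome and its activator, PSME1, PSMB8 and PSMB10 stood at -0.32, -0.26 and -0.54 with all treated arrays lower, and PSMB9 and PSME2 at -0.03 and 0.03 with overlapping groups. In the list of 12, all treated arrays were lower in 3 genes (25%, all genes 15.1%). They were all higher in 1, the peptide transporter TAP1 (8.33%, all genes 8.19%), which stood at 0.16. By the sign of the difference 6 of the 12 were higher and 6 lower. B2M, the light chain of class I molecules, stood at 0.02 from a basal level of 13.44 ± 0.11, near the top of the arrays. Of the interferons themselves, IFNB1 was between 3.39 and 3.58 and IFNG between 3.99 and 4.51 on all arrays, below the 25th percentile of each array, with differences of 0.00 and -0.01. IFNAC lay at 5.87 to 6.45, above the array median on 2 basal and all 3 TGFB1 arrays. IFNT2 lay at 5.17 to 5.69, below the median but above the 25th percentile on all arrays. Their differences were 0.15 and 0.13, neither near the threshold (limma adjusted p = 0.689 and 0.692).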

How the data were processed

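The deposited values are log2 expression, which the authors made by RMA (affy package, versions not given in the sources used here), per the submitters' processing notes. RMA corrects background, forces arrays to one distribution and summarises probes. Changes near background and near saturation can be compressed in such values. The array annotation, not the files, gave gene names. Of 24016 probe sets without the 112 controls, 13292 had 1 symbol, 86 several and 10638 none. Each gene was represented by the probe set of highest mean on the 6 arrays, and all 31 members were found by gene identifier in the RefSeq table of ARS-UCD2.0, used for names and neighbours only. The fit used limma 3.58.1 (R 4.3.3, lmFit and eBayes) with no covariate besides group and 4 residual degrees of freedom, two-sided, with Benjamini-Hochberg adjustment over all 9162 genes. The script was tested on simulated data. Precision is limited by the number of arrays. Figures were drawn with matplotlib 3.10.9.

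The members and lists were chosen with earlier results of these data known. Values per array were given for members past the threshold, those with groups apart and at least 1.5-fold different, the 2 per role with the smallest p and further members after their values were seen. Other pathway genes were named by the 3 smallest p per list. The interferon genes and B2M were singled out afterwards. 0 columns of the table were left unused. No sequences of these genes were used here.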

Additional observations from a re-analysis of the deposited data

How the results depend on the processing

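The member calls stayed at 2, EIF2AK2 and IFI6, with limma-trend, robust eBayes, median centring of arrays, another round of quantile normalization and a filter at the array median. They were 1 with the mean of all probe sets or with the probe set of highest variance, which both ended the call of EIF2AK2 (0.61 and 0.03). Leaving out each array gave 0 to 10 members, 0 to 1538 genes and 0 to 9 other pathway genes called. The 10 members arose without basal 3, which leaves basal arrays of set A only. All genes called were 99 with limma-trend. Other pathway genes called were 0 with the further normalization, limma-trend and highest variance, and 2, IFI30 and LAP3, with the filter. The members' median difference ran from 0.0476 to 0.23 over the arrays left out, was 0.39 with the filter and 0.0564 with highest variance. The array-set block, added after seeing the data and with sets taken from the tested values, called 878 genes, 11 members and 4 other pathway genes.

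Same-numbered arrays did not deviate together in every pair (correlations 0.67, -0.51 and 0.70), so the numbers were not taken as pairs, and basal 2 correlated best with TGFB1 1. The fit with the replicate block called 0 genes, 0 members and 0 other pathway genes, with 2039 genes and 13 members at an unadjusted p under 0.05 (limma).

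Of 461 member values under 15 alternatives, 11 changed sign. None of the 11 belonged to a called member. IRF7 was -0.14 with the mean of all probe sets. Over the arrays left out IRF7 ran from -0.19 to 0.20, IFI27 from -0.35 to 0.15, IFIT2 from -0.15 to 0.15, IFNAR1 from -0.41 to 0.31 and IFNAR2 from -0.14 to 0.0266.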

Other observations

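Some other interferon pathway genes differed between the array sets by more than most members did. Of the 57, 4 were higher in set B by at least 1 log2 with treatment held (7.02%, all genes 6.24%). By as much, 2 were lower (3.51%, all genes 1.45%). The upward share was thus close to that of all genes. With treatment held, PNPT1, a mitochondrial RNA exonuclease, was higher in set B by 2.05 log2, the guanylate-binding protein GBP1 by 1.61, the class I gene annotated as BOLA by 1.51 and TRIM5, a viral capsid sensor, by 1.31. TRIM25, a ligase that acts on RIG-I, was lower in set B by 1.60 (difference -1.60), and RTP4 by 1.20 (difference -1.20). On the arrays TRIM25 lay at 10.35, 10.21 and 8.06 in basal and at 9.86, 8.53 and 9.24 in TGFB1 cultures, and its treatment difference was -0.42 within set A and 0.82 within set B. These genes were picked after their values were seen, and what separates the sets was not tested.

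The median level over the 31 members was 7.32, 7.11 and 7.44 on the basal arrays and 7.54, 7.68 and 7.73 on the treated arrays, while the median over all genes lay between 7.07 and 7.16 on all arrays. The gene that stands at the members' median is not the same on every array, so these medians do not follow 1 gene. They show no rise of the whole list, since the difference was above 0 in 18 members and below 0 in 13. Without basal 3 the members' median difference was 0.0476.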
